A study of Mus musculus with 28 samples.

Results

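The neurotrophin system was followed through 6 genes chosen by name, of the 23995 genes listed in each table of axon-TRAP from mouse retinal ganglion cells (RGCs). They are Ntrk2 and Ntrk3, which encode the receptor tyrosine kinases TrkB and TrkC, Ngfr, which encodes the p75 neurotrophin receptor, Sort1, which encodes sortilin, and Bdnf and Ntf3, which encode the ligands BDNF and NT-3. The choice was made by what the genes encode, with earlier results of these data known. All 6 were listed in every library.

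Neurotrophins are secreted proteins that are made as larger proneurotrophins and cut to the mature ligand inside or outside the cell. Mature BDNF acts mainly on TrkB and NT-3 mainly on TrkC, and the activated kinases recruit adaptor proteins that start the Ras-MAP kinase, PI3 kinase-Akt and phospholipase C gamma pathways. The p75 receptor binds all neurotrophins, and together with sortilin it binds the uncut forms. In the visual system BDNF reaches RGCs from the retina and from their target in the brain, and TrkB signalling is known for its roles in RGC survival and in the branching of retinal axons. Both Ntrk2 and Ntrk3 also give shorter transcripts that encode receptors without the kinase domain, and truncated TrkB is a receptor of astrocytes as well.

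Axon-TRAP pulls down ribosomes that carry an HA tag and measures the mRNA bound to them. Mice of strain C57BL/6 came from RiboTag homozygous females, whose Rpl22 gene gains the tag after Cre recombination, and Pax6-alpha-Cre males, whose Cre is active for a time in progenitors of the peripheral retina, so that only some RGCs were tagged, from 1 allele. The SC (superior colliculus, which RGC axons reach) was taken from Cre-positive mice, where tagged ribosomes come from RGC axons, and from their Cre-negative littermates, which have the unrecombined allele and no tag, so that their libraries hold what binds without one. The retina was that of Cre-positive mice. The paper notes tagged ribosomes in retinal neurons other than RGCs too, so retina values are not those of RGC cell bodies alone. Each of the 3 sources was sampled 4 times, at E17.5 and P0.5, at P7.5 and in adults, which gave 12 groups of 2 libraries, and a library was made from 3 eyes or 6 SCs pooled. The study calls them biological replicates, and p-values measure the spread between such pools. Each gene has an estimate of that spread that all groups of a fit share, so it is not the spread of a single stage. Another 4 adult libraries came from a ribosome run-off experiment, done on Cre-positive SC and on retina, with 1 treated and 1 untreated library of each.

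Depth was uneven. The tables give no totals, and the number of fragments on genes, estimated from the smallest values of genes with 1 transcript, ran from 479422 to 13752882, with 3 of the 4 adult SC libraries and replicate 1 of the E17.5 Cre-negative SC at 1281068 or fewer. Replicates correlated at 0.951 to 0.967 (Pearson's r across genes, log2(FPKM + 1)) in the 3 groups of P0.5 and at 0.486 to 0.815 in the other 9 groups, and no pair differed by as little as sampling noise. Of 10 RGC markers, Rbpms was listed at 0 in all 16 SC libraries and in 4 of 8 retina libraries. The summed level of the list, 0 to 3507 FPKM in SC and 108 to 7434 FPKM in retina, was carried mostly by Pou4f1. Its median was 148 FPKM in Cre-positive SC, 395 FPKM in Cre-negative SC and 1260 FPKM in retina, so the sum was not higher in tagged than in untagged SC. The astrocyte marker Aqp4 was listed at 0 in all 24 libraries.

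The members differ in how their reads can be assigned. In GRCm38, the assembly to which the authors mapped, Ntrk2 lies on chromosome 13 at 58806569 to 59133970 on the plus strand and has 7 protein-coding transcripts in the GENCODE annotation, with coding parts from 1398 to 2463 bases. Ntrk3 lies on chromosome 7 at 78175959 to 78738012 on the minus strand with 6 such transcripts, whose whole length runs from 423 to 19703 bases. The tables give 1 value per gene, so kinase-bearing and shorter forms of TrkB and TrkC were summed and cannot be told apart here. Ngfr (chromosome 11, 95568818 to 95587735, minus strand) has a single transcript of 3446 bases, and Ntf3 (chromosome 6, 126101412 to 126166910, minus strand) has 3 of 1343 to 1483 bases. Bdnf (chromosome 2, 109674700 to 109727007, plus strand) has 11 transcripts that differ at their start and share most of their coding part, and Sort1 (chromosome 3, 108284082 to 108361511, plus strand) has 2 of about equal length. Antisense genes overlap Ntrk2, Ntrk3, Bdnf and Sort1, and the amplification is not described as keeping strand, so reads of those partners could count towards these 4 genes.

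Neurotrophin genes were near the limit of detection in most libraries. Of the 144 values of the 6 genes in 24 libraries, 51 were above 0 and 9 reached 1 FPKM (fragments scaled to transcript length and to the number mapped). All 9 belonged to SC libraries, 5 of them Cre-positive and 4 Cre-negative, and none to the retina. The values above 0 corresponded to a median of 2.98 estimated fragments, and 29 of the 51 to 3.1 fragments or fewer. In the retina, 20 of 29 values above 0 were of that size, and the largest, of Sort1 in the adult, stood for 36.6 fragments. The cDNA had been amplified by PCR, so that fragments are not independent molecules and these numbers cover counting only. SC libraries had more rounds of PCR than retina libraries, so amplification and tissue cannot be told apart between them.

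**Figure D1:**
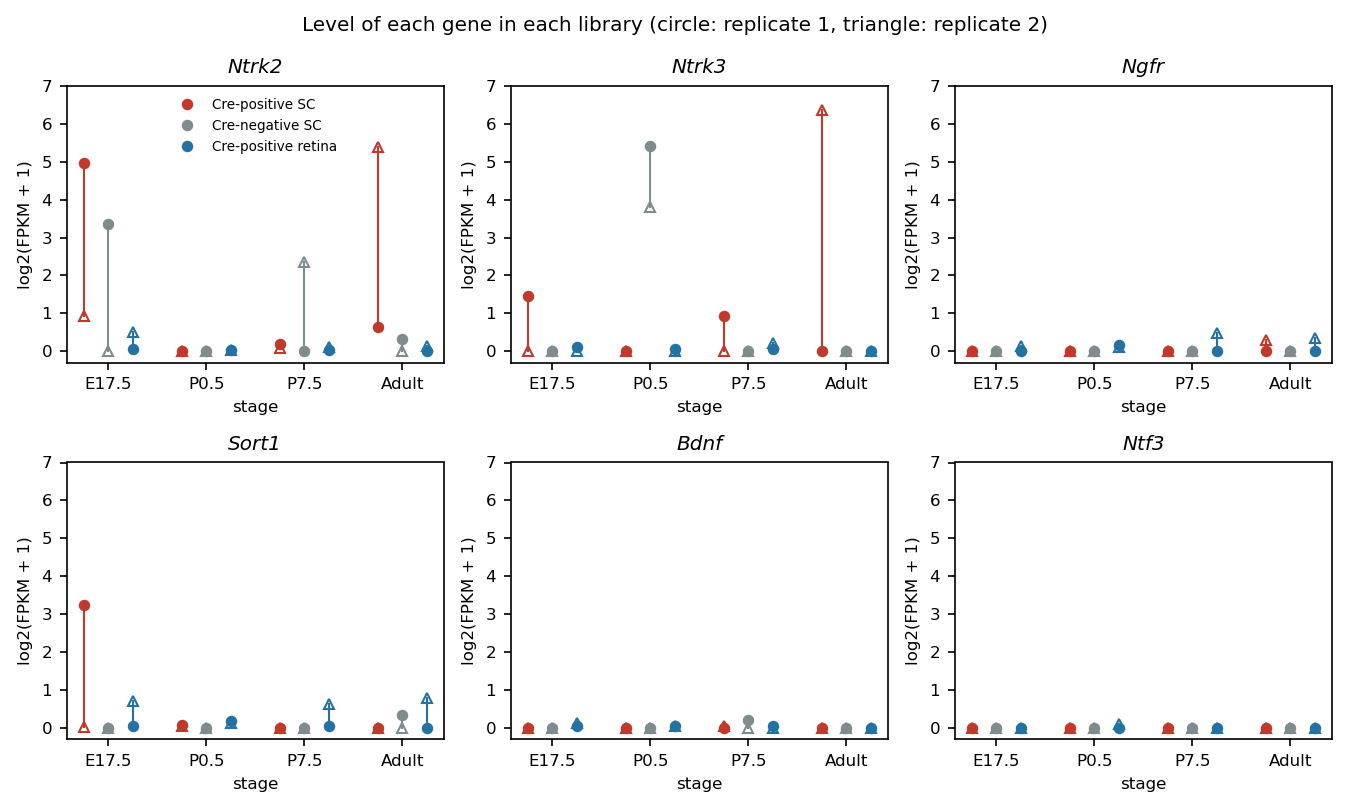
Level of each gene, as log2(FPKM + 1), in each library against stage, with red for Cre-positive SC, grey for Cre-negative SC and blue for retina, circles for replicate 1 and triangles for replicate 2, and a line that joins the replicates of a group. The tall lines of Ntrk2 at E17.5 and in the adult, of Ntrk3 in the adult and of Sort1 at E17.5 join 1 high and 1 low library, while Ntrk3 in Cre-negative SC at P0.5 is above 3 in both libraries.

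**Figure D2:**
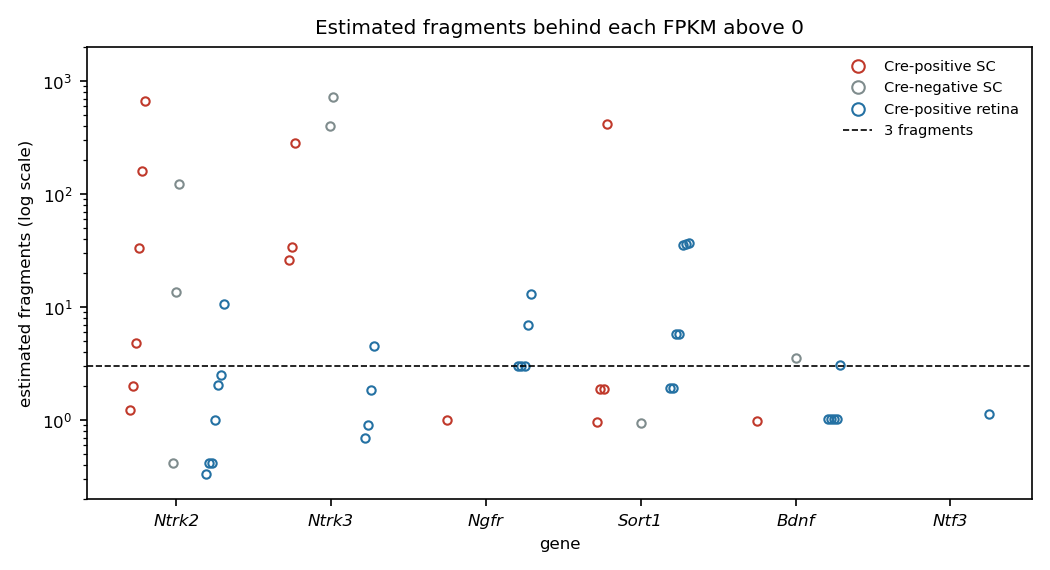
Estimated number of fragments, on a log scale, behind each value above 0, by gene and source, with a dashed line at 3 fragments. Most retina values lie at or under the line, and the values above 100 fragments are SC values of Ntrk2, Ntrk3 and Sort1.

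A high value in 1 library was seldom met by a high value in the other. In the 8 SC groups, a member reached 1 FPKM in at least 1 of the 2 libraries 8 times and in both libraries 1 time, which was Ntrk3 in Cre-negative SC at P0.5. Over all genes of the same 8 groups, 43.9% of those at 1 FPKM in either library were so in both, with 87.3% and 84.0% in the SC groups of P0.5 and 18.3% to 40.3% in the other SC groups. The members' gaps were thus of a kind that many genes had: among genes that reached 10 FPKM in replicate 1 of Cre-positive SC at E17.5, 46.4% were under 1 FPKM in replicate 2, and among those that reached it in replicate 2 of adult Cre-positive SC, 18.4% were under 1 FPKM in replicate 1.

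Ntrk2, the gene of TrkB, reached its highest levels in single libraries of Cre-positive SC. At E17.5 it was at 30.1 FPKM in replicate 1 and 0.891 in replicate 2 of Cre-positive SC, at 9.33 and 0 in Cre-negative SC, and at 0.0364 and 0.409 in retina. The Cre-positive and Cre-negative values overlapped, and the value of 9.33 stood for about 13.6 fragments, since that library was the shallowest. At P0.5 Ntrk2 was listed at 0 in all 4 SC libraries. The retina values of 0.0204 and 0.0134 came to less than 1 fragment each at the median transcript length, and to 1.19 and 1.20 with the longest.

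At P7.5 Ntrk2 was at 0.149 and 0.0664 FPKM in Cre-positive SC, at 0 and 4.09 in Cre-negative SC, and at 0.0150 and 0.0839 in retina. The highest of these 6 values was that of a Cre-negative library. In the adult it was at 0.552 and 41.1 FPKM in Cre-positive SC, at 0.260 and 0 in Cre-negative SC, and at 0 and 0.0908 in retina. Here the Cre-positive values lay above all 4 others, but the lower of them corresponded to 1.23 fragments, under the level of 3 fragments in its library (1.34 FPKM). Both figures use the median transcript length, and with the longest transcript the lower value would be 3.54 fragments. The value of 41.1 FPKM stood for about 161 fragments and ranked 425th among the 1637 genes above 0 in that library.

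No difference of Ntrk2 between Cre-positive and Cre-negative SC passed the test, which was limma on log2(FPKM + 1) over the 5983 genes at 1 FPKM in at least 2 SC libraries, with Benjamini-Hochberg adjusted p-values. The log2 difference was 2.85 in the adult (SE 1.72, 95% interval -0.98 to 6.67, adjusted p = 1) and 1.25 at E17.5 (SE 1.72, interval -2.57 to 5.08, adjusted p = 1). It was -1.03 at P7.5 (interval -4.85 to 2.80) and 0 at P0.5 (interval -3.83 to 3.83), both with an adjusted p of 1. The intervals span differences of many fold in each direction at P0.5 and P7.5. Without replicate 2 of Cre-positive SC the adult difference was 0.47, and without replicate 1 of Cre-positive SC the E17.5 difference turned to -0.77.

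The order of Ntrk2 levels over the 12 groups, by mean, began with adult Cre-positive SC (20.8 FPKM), E17.5 Cre-positive SC (15.5 FPKM), E17.5 Cre-negative SC (4.67 FPKM) and P7.5 Cre-negative SC (2.05 FPKM), and the other 8 groups were under 0.3 FPKM. In each of these 4 groups the replicates differed by more than the mean itself, so that no neighbours in this order differed beyond their spread.

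Markers of astrocytes, which also make TrkB, were present beside these values. In adult Cre-positive SC 3 of 8 astrocyte markers in replicate 1 and 2 of 8 in replicate 2 reached 1 FPKM, with sums of 617 and 566 FPKM, and in adult Cre-negative SC 3 and 1 of 8 did, with 186 and 253 FPKM. Gja1 carried most of each sum, and Aqp4, Slc1a2 and Fgfr3 were at 0 in both adult Cre-positive libraries. At E17.5 the sums were 27.8 and 37.0 FPKM in Cre-positive and 264 and 115 FPKM in Cre-negative SC. The 3 endothelial markers summed to 210 and 0.0606 FPKM in Cre-positive and to 4.07 and 0 FPKM in Cre-negative SC at E17.5. Cldn5 carried most of the 210 FPKM, in the library with 30.1 FPKM of Ntrk2. At P0.5, with Ntrk2 at 0, these sums were 61.0 and 28.3 FPKM in Cre-positive and 82.7 and 48.2 FPKM in Cre-negative SC. They were 0 in every adult SC library. The part of either cell type in the Ntrk2 values was not tested. In tissue libraries fewer cells of a type and less RNA per cell cannot be told apart.

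Ntrk3, the gene of TrkC, was the only member that limma called between both kinds of SC at a single stage, and it was lower in Cre-positive than in Cre-negative SC at P0.5. It was at 42.1 and 13.1 FPKM in the Cre-negative libraries, for about 721 and 400 fragments, and was listed at 0 in both Cre-positive libraries. The retina values of that stage were 0.05 and 0. The Cre-negative values therefore lay apart from the other 4, and ranked 778th of 2159 and 970th of 2545 genes above 0 in their libraries.

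The log2 difference of Ntrk3 at P0.5 was -4.62 (SE 1.58, 95% interval -8.12 to -1.12, adjusted p = 0.0457 by limma), and its size depends on the pseudocount since the lower group is listed at 0. The SE rests on the spread in all SC groups, and in a fit to P0.5 alone it was 0.663 (adjusted p = 0.00785 by limma). At this stage 1944 of 5983 genes passed (32.5%), 1684 of them higher in Cre-positive SC, and 4.35% were lower as Ntrk3 was. NOISeq, the method of the study, recomputed here on FPKM, also called Ntrk3 lower (probability 0.841), as it did 6.05% of 5500 genes. The call was lost when the filter on low values was dropped (adjusted p = 0.0801), with median-ratio scaling (adjusted p = 0.0505), with the replicate number as a block (adjusted p = 0.0579) and without any 1 of the 4 libraries (adjusted p = 0.0845 to 0.231). The median difference over all genes at P0.5 was 0.78 towards Cre-positive SC, and relative to it Ntrk3 lay farther down.

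In the adult Ntrk3 had the opposite sign. It was at 0 and 80.9 FPKM in Cre-positive SC, at 0 in both Cre-negative libraries and at 0 in both retina libraries. The value of 80.9 FPKM was the highest of all 144 member values, stood for about 282 fragments and ranked 331st of 1637 genes in its library, while replicate 1 with 733138 estimated fragments had none. The groups overlapped at 0. The log2 difference of 3.18 did not pass (SE 1.58, 95% interval -0.32 to 6.68, limma adjusted p = 1), at a stage where 0.15% of genes did. NOISeq called both Ntrk3 (probability 0.855) and Ntrk2 (probability 0.813) higher in adult Cre-positive SC, as it did 10.2% of 5156 genes. Replicate 2 of Cre-positive SC decided these values: without it the difference of Ntrk3 was 0, and without replicate 1 it was 6.36 with an adjusted p of 0.0266, where the remaining library is assumed to vary as the other groups do.

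At E17.5 Ntrk3 was at 1.74 and 0 FPKM in Cre-positive SC, at 0 in both Cre-negative libraries and at 0.0741 and 0 in retina. At P7.5 it was at 0.906 and 0 FPKM in Cre-positive SC, at 0 in both Cre-negative libraries and at 0.0350 and 0.171 in retina. The groups overlapped at both stages. The log2 difference between Cre-positive and Cre-negative SC was 0.73 at E17.5 (95% interval -2.77 to 4.22, adjusted p = 1) and 0.47 at P7.5 (interval -3.03 to 3.96, adjusted p = 1, limma). By limma 1.57% of genes passed at E17.5, and 0% at P7.5, where 84 of 5983 genes had an unadjusted p under 0.05 and NOISeq called 239 genes higher and 270 lower, none of them a member.

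By mean, Ntrk3 was highest in adult Cre-positive SC (40.4 FPKM) and Cre-negative SC at P0.5 (27.6 FPKM), whose ranges overlap, and under 1 FPKM in the other 10 groups. Both P0.5 Cre-negative libraries lay above every library of those 10 groups, of which the highest was at 1.74 FPKM, while in the adult 1 Cre-positive library was at 0.

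**Figure D3:**
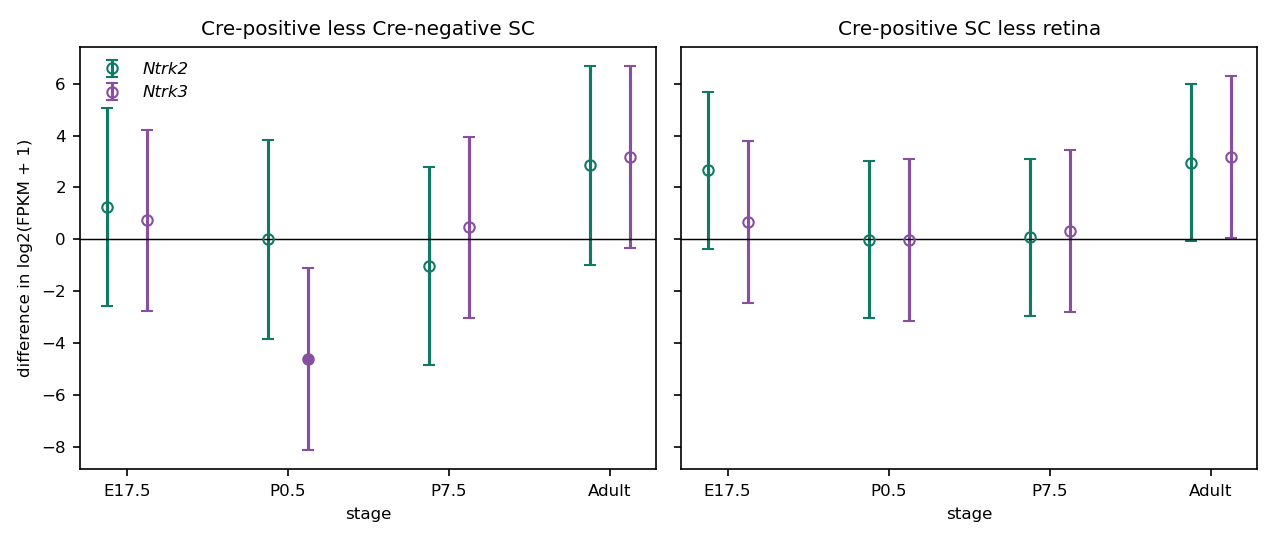
Differences of Ntrk2 and Ntrk3 in log2(FPKM + 1) against stage with 95% intervals from limma, for Cre-positive less Cre-negative SC on the left and Cre-positive SC less retina on the right. A filled point marks an adjusted p under 0.05, which Ntrk3 at P0.5 on the left reached at -4.62, and all other points are open.

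Markers of other SC cells stood beside the Ntrk3 values as follows. At P0.5 the 3 markers of GABA neurons were at 0 in all 4 SC libraries, and 2 of 8 astrocyte markers reached 1 FPKM in each Cre-negative library (sums 15.9 and 38.3 FPKM) against 5 and 4 of 8 in the Cre-positive libraries (67.3 and 58.2 FPKM). Of 6 microglia markers, C1qa alone was found at P0.5 in SC, at 77.0 and 43.2 FPKM in the Cre-negative libraries that held Ntrk3 and at 0 in the Cre-positive ones, and the other 5, Cx3cr1 and P2ry12 among them, were at 0 in all 4. Oligodendrocyte markers were alike, at 84.7 and 86.6 FPKM in Cre-positive and 86.2 and 48.1 FPKM in Cre-negative SC, all of it Cnp. In the adult Cre-positive SC, the library with 80.9 FPKM of Ntrk3 had 18.0 FPKM of GABA neuron markers, all of it Gad2, and the library with 0 had none, while in adult Cre-negative SC, with no Ntrk3, replicate 1 had 118 FPKM, all of it Gad1, and replicate 2 had none. Oligodendrocyte markers summed to 735 FPKM in the library without Ntrk3 and 990 FPKM in the library with it, and to 266 and 4148 FPKM in adult Cre-negative SC. Cnp carried most of each sum, and Mog, Mag and Mobp were at 0 in every adult SC library. The part of these cells in the Ntrk3 values was not tested.

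Changes of the receptor kinases along the stages of Cre-positive SC did not pass the test. Ntrk2 had a log2 change of -2.94 from E17.5 to P0.5 (95% interval -6.76 to 0.89, adjusted p = 0.272), 0.15 from P0.5 to P7.5 and 2.87 from P7.5 to the adult (both adjusted p = 1). Ntrk3 had changes of -0.73, 0.47 and 2.71 over the same steps (adjusted p = 0.869, 1 and 1, limma). Over all genes 26.9%, 29.8% and 0.0836% passed at these steps. Without replicate 1 of adult Cre-positive SC, the change of Ntrk3 to the adult was 5.89 with an adjusted p of 0.0434, and without replicate 2 it was -0.47.

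The question of whether Cre-positive SC changed otherwise than Cre-negative SC was addressed by the difference of their changes. For Ntrk3 this was -5.35 (SE 2.23, adjusted p = 0.111) from E17.5 to P0.5, 5.09 (SE 2.23, adjusted p = 0.148) from P0.5 to P7.5 and 2.71 (SE 2.23, adjusted p = 1) from P7.5 to the adult. The first and the second had an unadjusted p under 0.05 (0.0366 and 0.0448). Ntrk2 had differences of -1.25, -1.03 and 3.88 with adjusted p-values from 0.822 to 1. No member passed by limma in any of them, where 27.1%, 21.5% and 0% of genes did, and at the last step 134 genes had an unadjusted p under 0.05. The Cre difference of Ntrk3 in the adult was then set directly against that at P0.5, a contrast chosen after the values were seen. It differed by 7.80 on the log2 scale (SE 2.23, adjusted p = 0.0290, limma), in a contrast where 22.1% of genes passed. The call was lost without the filter on low values (adjusted p = 0.0548), and the adjusted p ranged from 0.00175 to 0.150 when 1 of the 8 libraries was left out.

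Against retina, neither Ntrk2 nor Ntrk3, the 2 members that could be tested, passed in Cre-positive SC after adjustment. Tissue and the number of PCR rounds, which was higher for SC, cannot be told apart in this comparison. Ntrk2 had a log2 difference of 2.67 at E17.5 (95% interval -0.36 to 5.69, adjusted p = 0.525) and 2.95 in the adult (interval -0.08 to 5.98, adjusted p = 0.666), both from 1 high library. Ntrk3 had 3.18 in the adult (interval 0.05 to 6.30, unadjusted p = 0.0467, adjusted p = 0.632) and 0.67 at E17.5 (adjusted p = 0.939). At P0.5 and P7.5 the differences of both genes lay between -0.04 and 0.33, with adjusted p-values of 1. Over the 6321 genes of this fit, 1.31%, 34.7%, 0.0158% and 0.0949% passed at E17.5, P0.5, P7.5 and in the adult. Without replicate 1 of adult Cre-positive SC Ntrk3 passed there too (6.36, adjusted p = 0.00122).

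In retina no member reached 1 FPKM in any of 8 libraries, so that none entered the test across stages. Sort1 was the member with the highest retina values and was above 0 in 7 of 8 libraries, as was Ntrk2, followed by Ngfr and Bdnf in 5, Ntrk3 in 4 and Ntf3 in 1. Their highest retina levels were 0.730 FPKM for Sort1, 0.409 for Ntrk2, 0.387 for Ngfr, 0.171 for Ntrk3, 0.0924 for Bdnf and 0.0791 for Ntf3.

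Ngfr, the gene of the p75 receptor, was above 0 in 5 of 8 retina libraries and in 1 of 16 SC libraries. In SC it was listed at 0 in 15 of 16 libraries and at 0.225 FPKM in replicate 2 of adult Cre-positive SC, which is 1 fragment (0.993 estimated). In retina it was at 0 and 0.102 FPKM at E17.5, 0.130 and 0.0850 at P0.5, 0 and 0.387 at P7.5, and 0 and 0.271 in the adult. These stood for 3 fragments in 3 libraries, about 13.0 at P7.5 and 6.88 in the adult. Whether Ngfr differed between SC and retina was not tested, since it did not pass the filter. In adult SC 3 fragments of Ngfr come to 0.408 to 1.67 FPKM, so that every retina value of Ngfr lies under that level. In P7.5 SC they come to 0.0823 to 0.138 FPKM, under the 0.387 FPKM of 1 P7.5 retina library, and Ngfr was at 0 in each SC library of that stage. The other P7.5 retina library was at 0 too.

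Sort1, whose product sortilin binds p75 and the pro-forms of the ligands and also sorts BDNF within the cell, was high in 1 SC library. At E17.5 it was at 8.39 and 0.0115 FPKM in Cre-positive SC, for about 413 and 0.961 fragments, at 0 in both Cre-negative libraries and at 0.0312 and 0.626 in retina. At P0.5 it was at 0.0438 and 0.0333 FPKM in Cre-positive SC, at 0 in Cre-negative SC and at 0.126 and 0.0828 in retina. The Cre-positive values of E17.5 and P0.5 lay above the Cre-negative zeros, but 3 of the 4 came to less than 2 fragments. At P7.5 Sort1 was at 0 in all 4 SC libraries and at 0.0385 and 0.533 FPKM in retina. In the adult it was at 0 in both Cre-positive libraries, at 0.268 and 0 in Cre-negative SC and at 0 and 0.730 in retina. With 1 library at 1 FPKM it did not enter the SC test.

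The ligand genes were close to absent from these libraries at this depth. Bdnf was above 0 in 2 of 16 SC libraries, at 0.0256 FPKM in replicate 2 of Cre-positive SC and 0.144 in replicate 1 of Cre-negative SC at P7.5, or about 1 and 3.6 fragments (0.984 and 3.56 estimated). In retina it was at 0.0291 and 0.0924 FPKM at E17.5, at 0.0392 and 0.0256 at P0.5, at 0.0358 and 0 at P7.5 and at 0 in both adult libraries. Of these 5 values, 4 stood for a single fragment. Ntf3 was above 0 in 1 of 24 libraries, replicate 2 of P0.5 retina, at 0.0791 FPKM or 1.13 estimated fragments. A level of 3 fragments ranged from 0.109 to 3.13 FPKM between libraries for a transcript of 2 kb. For Bdnf it ranged from 0.0559 to 1.60 FPKM and for Ntf3 from 0.156 to 4.47 FPKM. Levels under these rest on fewer fragments and cannot be told from 0.

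Other genes of the family were scarce as well. Ntf5, the gene of the TrkB ligand NT-4, was at 29.3 FPKM in replicate 1 of Cre-negative SC at E17.5 and at 0.370 in replicate 2 of E17.5 retina, and at 0 elsewhere. The sortilin relatives Sorcs2, a co-receptor of p75, and Sorl1, the sorting receptor SorLA, were the exceptions at P0.5. At that stage Sorcs2 was at 6.53 and 7.61 FPKM in Cre-positive SC, at 0 in Cre-negative SC and at 0.227 and 0.165 in retina. Sorl1 was at 10.8 and 2.82 FPKM in Cre-positive SC, at 0 in Cre-negative SC and at 0.0414 and 0.0136 in retina. The Cre-positive values of both genes lay above the 4 others. Of the 7 further family genes only these entered the fit, and they did so through the P0.5 Cre-positive libraries, where they were high, so that their difference is given as a description with no test. Sorcs2 was also at 11.2 FPKM in replicate 1 of Cre-negative SC at E17.5.

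The pathways that the receptors feed into were followed by 3 gene lists. Of 42 Trk adaptors and effectors, 23 were tested in SC, and at P0.5 the Cre-positive libraries had 3 of them higher and 2 lower. Their median difference was 0 on the log2 scale, against 0.78 over all genes. Those with the smallest adjusted p-values were Mapk7, the MAP kinase ERK5 (log2 difference 4.54), and Rps6ka1, the S6 kinase RSK1 (-4.40). Next came Pik3r1, the regulatory subunit of PI3 kinase (-3.58, limma adjusted p = 0.00645), and Plcg1, phospholipase C gamma (1.79). Of these, Mapk7, Rps6ka1 and Plcg1 passed the filter only through the group in which they were high. Their differences are given as a description with no test. Rps6ka1 was at 26.7 and 15.2 FPKM in Cre-negative and at 0 in both Cre-positive libraries, a direction that the filter fixed. Pik3r1, at 27.8 and 4.04 FPKM in Cre-negative against 0 and 0.0196 FPKM in Cre-positive libraries, had the direction of Ntrk3.

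Of 21 partners and effectors of p75, 12 were tested. At P0.5 the Cre-positive libraries had 4 of them higher and none lower, with a median of 2.35 against 0.78 over all genes. Among them were Bad (4.80), an inducer of apoptosis, and Zfp110 (3.03), the p75-binding zinc finger protein NRIF. Another was Lingo1 (4.36, limma adjusted p = 0.0426), a partner of p75 in the Nogo receptor complex. Of 17 genes of ligand processing, 7 were tested and 2 were higher, with a median of 0.97 over the list. They were Serpini1 (3.36), the inhibitor neuroserpin of tissue plasminogen activator, and Scg2 (4.13, limma adjusted p = 0.0110), a granin of secretory granules. These calls belong to the stage at which 32.5% of all genes were called. Of the 13 genes called at P0.5 over these lists and the further family genes, 8 passed the filter on low values only through the group in which they were high, Bad, Zfp110, Mapk7, Plcg1, Serpini1 and Rps6ka1 among them, so that the filter fixed their direction, and the counts and medians of the lists are no support for one. Pik3r1, Lingo1 and Scg2, and also Ntrk3, passed it without that group.

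At the other 3 stages limma called none of the 44 tested genes of the 4 lists between Cre-positive and Cre-negative SC. Calls were rare among all 5983 genes too, with 1.57% passing for E17.5, 0.15% for adults and 0% for P7.5. A count of 0 among 44 genes therefore does not set these lists apart. Of the 44, 1 had an unadjusted p under 0.05 at P7.5 and none at E17.5 or in the adult. Of all genes, 84, 363 and 184 had one, in that order. From P0.5 to P7.5 in Cre-positive SC, 3 of the 23 Trk genes, 6 of the 12 p75 genes and 3 of the 7 processing genes fell and none rose, where 29.8% of all genes were called, 1750 of those 1780 lower. Mapk7, Plcg1, Bad, Zfp110 and Serpini1 were among those that fell. They passed the filter only through the P0.5 Cre-positive libraries, so the filter fixed their direction and the counts are no support for one. Against retina at P0.5, 4 of 20 tested Trk genes, 6 of 11 p75 genes and 4 of 7 processing genes were higher in Cre-positive SC, where 34.7% of all genes were called, 2066 of those 2193 higher, and Rhoa of the p75 genes and Furin of the processing genes, the latter named after its value was seen, were lower. How far the filter of the fit with retina fixed these directions was not examined, so the counts against retina are no support for one.

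**Figure D4:**
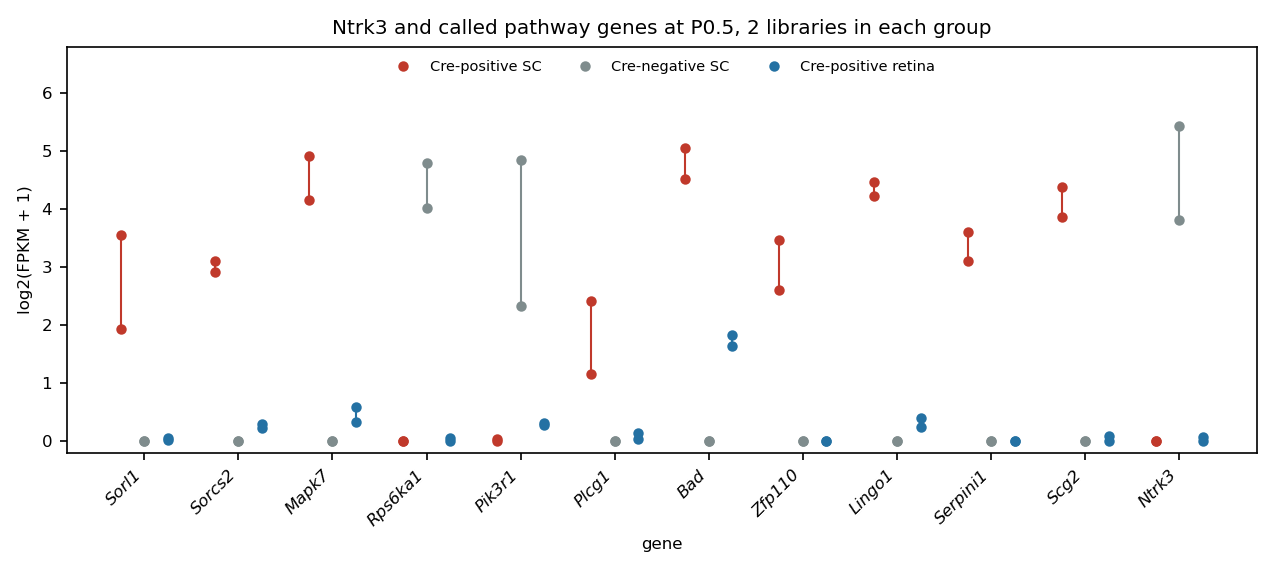
Level, as log2(FPKM + 1), of called pathway and family genes and of Ntrk3 in the 6 libraries of P0.5, with red for Cre-positive SC, grey for Cre-negative SC and blue for retina, and a line that joins the replicates of a group. Only Rps6ka1, Pik3r1 and Ntrk3 are higher in the grey libraries, and the other 9 genes are at 0 in them.

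The genes whose pattern was most like that of a member were taken from 4642 genes at 1 FPKM in at least 4 of the 24 libraries, as a description over libraries of uneven depth. For Ntrk2 they were Babam1 (Pearson's r = 0.883), Top1 (r = 0.856) and Sez6l (r = 0.829), each of which was also above 50 FPKM in replicate 1 of E17.5 and replicate 2 of adult Cre-positive SC. For Ntrk3 they were Bach1 (r = 0.817), Cdk7 (r = 0.784) and Ctsz (r = 0.755). The likeness rests on these few libraries, and between Ntrk2 and Ntrk3 themselves r was 0.418. The other 4 members reached 1 FPKM in fewer than 4 libraries and were not compared.

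In ribosome run-off the lysate is kept with drugs that block new initiation, so that ribosomes already elongating complete their protein and let go of the mRNA before the pull-down. With 1 adult library of each kind, for which the authors deposited read counts, no test of the treatment is possible. In Cre-positive SC without run-off, Ntrk3 had 71 reads or 21.8 CPM (counts scaled to the library total, 95% Clopper-Pearson interval 16.99 to 27.4) and Sort1 243 reads or 74.5 CPM (65.4 to 84.4). Divided by the median transcript length, these were 7.98 CPM per kilobase for Ntrk3 and 10.9 CPM per kilobase for Sort1. The other 4 members had no read, which by the same interval allows up to 1.13 CPM.

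With run-off no member had a read in SC. Counted as reads, that is at least 23.7-fold lower for Ntrk3 and at least 81-fold lower for Sort1, against a floor of 3 reads in the library. The library with run-off was smaller, with 349395 reads against 3262914 (10.7%), and in CPM the falls were at least 2.53-fold and 8.67-fold. At an unchanged share of reads 7.60 reads of Ntrk3 and 26.0 of Sort1 would have been found. Of all 2320 genes with 50 to 500 reads without run-off, 57.5% had none with it, so that complete loss was common at this size.

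In adult retina without run-off there were 6 reads of Ntrk2 (1.28 CPM) and 11 of Sort1 (2.35 CPM), and none of the other 4 members, which allows up to 0.787 CPM. With run-off no member had a read. Since the library held 315009 reads, a share like that without run-off would have given 0.403 and 0.739 reads, so that a loss was not detectable at this depth. Of genes with 1 to 49 reads, 76.9% had none with run-off.

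**Figure D5:**
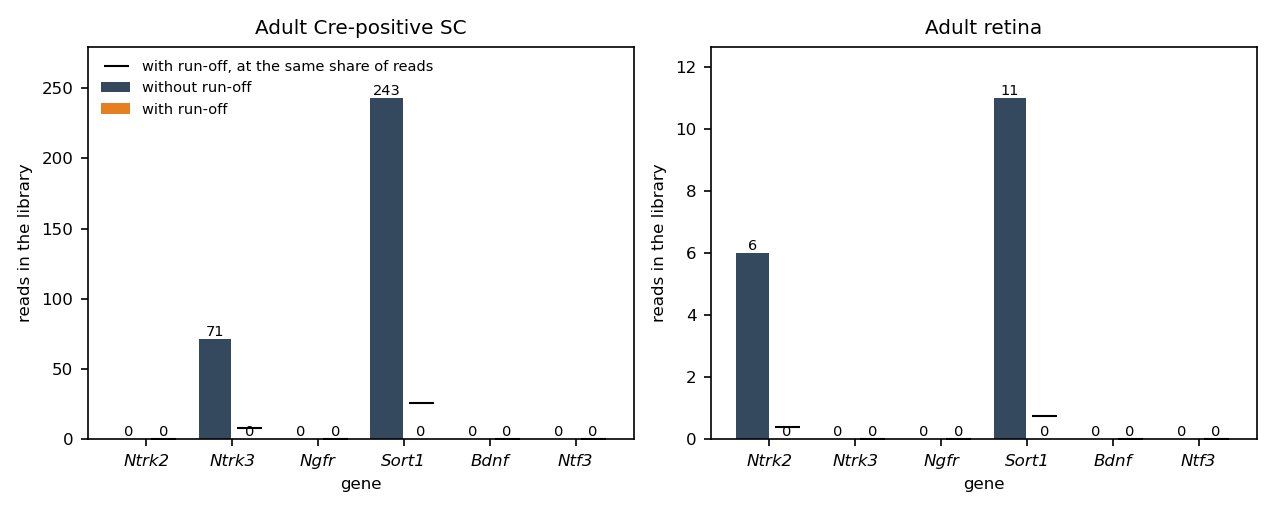
Reads of each gene in the adult run-off libraries, 1 library per bar, for Cre-positive SC on the left and retina on the right on its own scale, without (dark bars) and with run-off (0 in each case). The short lines give the reads that the same share of the smaller library would hold, 26.0 for Sort1 and 7.60 for Ntrk3 in SC and under 1 in retina.

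The SC library without run-off gives another measurement of adult Cre-positive SC, and it repeated the member values of the replicates only in part. Ntrk3 was at 0 and 80.9 FPKM in the replicates and had 71 reads in the run-off control, so it was found there as in replicate 2. Bdnf and Ntf3, at 0 FPKM in both replicates, and Ngfr, at 0 and 0.225 FPKM, had no read in the run-off control. Ntrk2 and Sort1 were not repeated. Ntrk2 was at 0.552 and 41.1 FPKM in the replicates and had no read in the run-off control. Sort1 was at 0 FPKM in both and had 243 reads in the run-off control. Such gaps were frequent. Of 110 genes that reached 10 FPKM in replicate 2 and under 1 FPKM in replicate 1, as Ntrk2 and Ntrk3 were, 58.2% had at least 3 reads in the run-off control. This compares with 90.3% of the 403 genes that reached 10 FPKM in both and with 19.1% of all 23991 genes. Of the 20729 genes at 0 in both, 2572 (12.4%) had at least 3 reads there, and 507 had more reads than Sort1. In this library 5 of 8 astrocyte markers (sum 755 CPM), 5 of 7 oligodendrocyte markers (5259 CPM) and 2 of 3 GABA neuron markers (195 CPM) had 3 reads or more, with Aldh1l1, Fgfr3, Mog, Mag and Slc32a1 at 0, and their part in the reads of Ntrk3 and Sort1 was not tested.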

How the data were processed

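Ribosome-bound mRNA was amplified from oligo-dT priming and sequenced. Per the labels, the authors mapped reads to mm10 with TopHat2 2.0.12, and deposited FPKM per gene from Cufflinks 2.2.1 for 24 libraries and read counts per gene from HTSeq 0.6.1p1 for the 4 run-off libraries. The gene annotation is not given in the sources used here. In 4 genes, none a member, a value was not a number, and these were left out. Groups came from the labels.

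Members and gene lists were chosen with earlier results of these data known. The pathway genes named are among the 4 with the smallest adjusted p-values per list and comparison, and some of these are not reported here. Tests used limma 3.58.1 in R 4.3.3 on log2(FPKM + 1) with trend and robust moderation, for genes at 1 FPKM or more in at least 2 libraries of the fit, over all 8 SC groups, over Cre-positive SC with retina, or over retina, with Benjamini-Hochberg adjustment and a threshold of 0.05. Ntrk2 and Ntrk3 were the only members to pass this filter in SC. Fragments were estimated from FPKM, the median GENCODE transcript length and the smallest values of 2599 genes with 1 transcript longer than 1200 bases; with the longest transcript the Ntrk2 and Ntrk3 figures would be larger. NOISeq was rewritten with 0 replaced by 0.5 FPKM and called at a probability over 0.7. The statistical steps were tested on simulated data. Python 3.11.15 and scipy 1.17.1 were used. No reference table of proteins was used, and no sequence is printed.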

Additional observations from a re-analysis of the deposited data

Results flagged for a closer look

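The difference of Ntrk3 between Cre-positive and Cre-negative SC was not the same in the adult and at P0.5. The adult difference less that of P0.5 was 7.80 on the log2 scale (SE 2.23, limma adjusted p = 0.0290), since Ntrk3 was found in both Cre-negative libraries at P0.5 and in 1 Cre-positive library of the adult. The contrast was chosen after the values had been seen, 22.1% of all genes passed it, and the adjusted p ranged from 0.00175 to 0.150 when 1 of the 8 libraries was left out. Without replicate 2 of adult Cre-positive SC it was 4.62 (adjusted p = 0.0160), all of it from P0.5.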

How the results depend on the processing

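The 1 called member at P0.5, Ntrk3, was kept with a pseudocount of 0.1, in a fit to the stage alone and by NOISeq, and the count of members called was 0 without the filter on low values, with median-ratio scaling and with the replicate block (limma adjusted p = 0.0801, 0.0505 and 0.0579), and 0 without each of the 4 libraries. In the adult NOISeq called 2 members, and leaving out 1 library gave counts of 0 to 1 for the Cre comparison, the change from P7.5 and the comparison with retina, with the 1 reached without Cre-positive replicate 1. The added contrast of the adult with P0.5 had a count of 0 without the filter (adjusted p = 0.0548), and 0 to 1 over left-out libraries.

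Signs turned in members that were not called, when 1 library was left out. The Cre difference of Ntrk2 ranged from -0.77 to 3.27 at E17.5 (-0.43 without Cre-negative replicate 2, -0.77 without Cre-positive replicate 1) and from -2.20 to 0.15 at P7.5. Its difference of changes ranged from -3.27 to 0.77 up to P0.5, with 0.43 without the same Cre-negative library, and from -2.20 to 0.15 from P0.5 to P7.5. Ntrk3 ranged from -0.47 to 5.89 from P7.5 to the adult, in the change and in the difference of changes, with -0.47 without replicate 2 of adult Cre-positive SC, and from -0.14 to 0.79 against retina at P7.5.

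The replicate numbers were not taken as pairs, since no source says that a number marks a litter, and the differences between replicates of Cre-positive and Cre-negative SC correlated at 0.565, 0.427, 0.456 and 0.0810 over the stages. The replicate block changed no other call of a member. Depth limits all of this: under 3 fragments no level can be told from 0.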
